A study of Mus musculus with 2 samples.

Results

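The genes described here make sterols and fatty acids. They were 33 listed genes, chosen by name with earlier results of these data known. They form a sterol branch of 16, a fatty acid branch of 12 and a group of 5 regulators of the sterol regulatory element-binding proteins (SREBPs). Each was read from the probe set that the array's annotation gives to that gene alone, and where there were several, from the brightest one. Of the 33, 32 were read, out of 18193 genes read in this way. Acsl1, which joins fatty acids to coenzyme A, had no such probe set and was not analysed here.

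The data came from 1 culture per group, each measured on 1 array. Fresh bone marrow cells of C57BL/6 mice received either a control siRNA or silncMDSC, an siRNA whose target, a long non-coding transcript, is lncMDSC in the labels and lnc-C/EBPβ in the study. Both cultures then stayed for 4 days in complete medium with GM-CSF and IL6, which drive marrow cells to become myeloid-derived suppressor cells (MDSCs). The labels give neither the age of the mice nor a sort of the cells before RNA extraction, so each array read a mixed culture. The knockdown itself was not analysed here, because no probe set is named for the target. With 1 array per group no test was possible, no p is given, and every difference describes these 2 arrays and not the conditions.

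Cells build cholesterol from acetyl-CoA through mevalonate, squalene and lanosterol, and the same acetyl-CoA feeds fatty acid synthesis, after which elongases lengthen the chains and desaturases place double bonds in them. Transcription of both branches is known to be driven by the SREBPs, membrane-bound factors that Scap escorts out of the endoplasmic reticulum when sterols are low and that the Insig proteins hold back when sterols are high. In macrophages and other myeloid cells these routes supply membrane for growth and for changes of activation state. SREBPs are known to act on promoters together with NF-Y and Sp1, which bind the CCAAT and GC boxes.

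Promoter sequence had no part in choosing the members, and 1 box stood in a promoter of every sterol branch gene for which a promoter was held. RefSeq promoters (build GRCm38.p6, from 250 bases before to 50 after a start site) were at hand for 26 of the 33 genes, with 36 start sites in all. None was held for Fads1, Fdft1, Fdps, Scd1, Scd2, Sqle or Stard4. The NF-Y box CCAAT, searched on both strands, stood in a promoter of 12 of 12 sterol branch genes, 5 of 9 fatty acid branch genes and 4 of 5 regulators. It stood in a promoter of 42.3% of the 9640 genes above the floor (explained below) that have one, and in 37.4% of all 32851 promoters. Counted by start site, 12 of 15 sterol branch promoters, 5 of 11 fatty acid branch promoters and 5 of 10 regulator promoters held it. The Sp1 box GGGCGG was in a promoter of 20 of the 26 genes, 76.9%, against 66.1% of genes above the floor. A core of the sterol regulatory element, CACNCCAC, was in 3 of the 26, Hmgcs1, Insig1 and Acsl1, 11.5% against 7.77%. These are matches of letters and not shown sites of binding. Matches of the NF-Y box and the sterol regulatory element core overlapped in none of the 36 promoters, and a box of NF-Y and one of Sp1 overlapped in 1, an Elovl1 promoter.

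A few of these promoters are shown because they span the results that follow, from enzymes near level to the genes farthest apart. Hmgcs1 and Mvk open the mevalonate route, Hsd17b7 is the member farthest below control, and Lpin1 is the member farthest above control for which a promoter was held. Capitals mark matches of the NF-Y box (CCAAT, or ATTGG on the other strand) and, in Hmgcs1, of CACNCCAC. All are written 5′ to 3′ on the gene's own strand.
Hmgcs1 chr13:119690101-119690400, + strand: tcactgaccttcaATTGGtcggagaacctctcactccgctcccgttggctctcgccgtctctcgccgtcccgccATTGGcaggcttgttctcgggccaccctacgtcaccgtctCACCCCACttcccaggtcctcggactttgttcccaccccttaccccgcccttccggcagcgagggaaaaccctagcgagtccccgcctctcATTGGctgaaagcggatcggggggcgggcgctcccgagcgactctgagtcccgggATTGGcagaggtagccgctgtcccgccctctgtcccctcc
Mvk chr5:114444019-114444318, + strand: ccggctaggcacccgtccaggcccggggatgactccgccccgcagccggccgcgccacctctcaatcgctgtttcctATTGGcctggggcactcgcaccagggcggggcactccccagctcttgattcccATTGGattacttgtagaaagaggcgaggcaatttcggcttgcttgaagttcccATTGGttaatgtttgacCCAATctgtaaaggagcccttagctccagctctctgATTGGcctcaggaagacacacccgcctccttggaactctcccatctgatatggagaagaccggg
Hsd17b7 chr1:169969156-169969455, - strand: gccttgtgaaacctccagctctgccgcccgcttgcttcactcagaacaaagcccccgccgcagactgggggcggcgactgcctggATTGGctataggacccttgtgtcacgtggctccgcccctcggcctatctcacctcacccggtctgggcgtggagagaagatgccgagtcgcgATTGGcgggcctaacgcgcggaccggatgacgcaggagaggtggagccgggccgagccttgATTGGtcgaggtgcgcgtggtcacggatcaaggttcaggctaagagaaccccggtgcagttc
Lpin1 chr12:16610917-16611216, - strand: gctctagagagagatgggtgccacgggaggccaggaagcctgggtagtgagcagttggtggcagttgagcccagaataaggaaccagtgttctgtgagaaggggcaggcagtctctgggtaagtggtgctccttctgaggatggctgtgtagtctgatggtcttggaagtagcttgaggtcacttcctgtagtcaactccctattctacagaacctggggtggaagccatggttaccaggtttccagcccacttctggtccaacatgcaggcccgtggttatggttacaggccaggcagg
Mvk held 5 NF-Y boxes, Hmgcs1 4 and Hsd17b7 3, while the Lpin1 window held 0 of these boxes and 0 Sp1 boxes. No match in a window says only that these letters are not there.

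Most members lay within 1.5-fold on the 2 arrays, as did most genes, and a few of the fatty acid branch stood apart. Values are probe set intensities on a linear scale, and a difference is log2(intensity + 1) in silncMDSC less the same in control siRNA. Counts take in the genes that came to 78.4 or more on at least 1 array, which is the median over all probe sets and is called the floor. All 32 members did so, as did 11920 genes in total. The lowest member value was 190, of Hsd17b7 on the silncMDSC array. Of the 32 members, 2 were at least 1.5-fold higher in silncMDSC, Scd1 and Lpin1, against 0.948% of all genes above the floor. At the other end 1 was at least 1.5-fold lower, Hsd17b7, against 1.42% of all genes. That count was 0 once the probe sets of each gene were averaged (Hsd17b7 at -0.27) and also without probe sets ending in _x_at or _s_at (-0.41). The other 29 lay between, as did 11638 of all 11920 genes. Within 0.1 of 0 were 10 of the 32, against 5117 of all 11920 genes. In all, 19 of 32 were above 0, or 59.4%, against 49.3% of all genes, and the median difference was 0.055, against -0.002 over all genes. The spread of all genes, a scaled median absolute deviation of 0.18, mixes probe noise with real differences and is no replicate error. Levels are not compared between genes, because probe sets differ in brightness for the same amount of RNA. In RNA from a mixed culture, fewer cells of a type and less RNA per cell cannot be told apart.

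**Figure D1:**
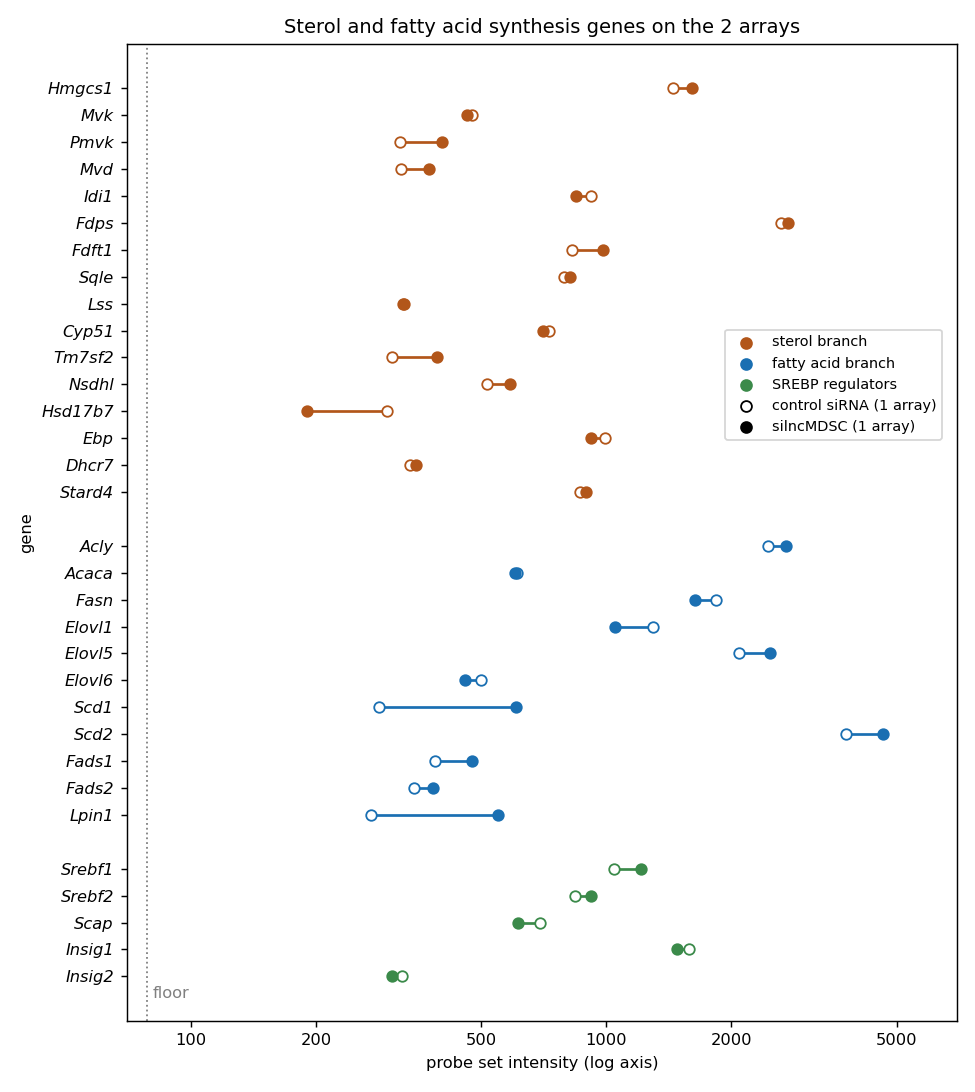
Each row is 1 member, with its intensity (x axis, log scale) on the control siRNA array (open circle) and on the silncMDSC array (filled circle), 1 array each, and the dotted line is the floor of 78.4. The lines of Scd1, from 283 to 607, and Lpin1, from 272 to 549, are the longest, and Hsd17b7 runs the other way, from 296 to 190.

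The 4 desaturases among the members, grouped after the values were seen, were all higher in silncMDSC. Scd1, stearoyl-CoA desaturase, makes monounsaturated fatty acids from saturated ones. It read 283 in control and 607 in silncMDSC (a log2 difference of 1.10, or 2.14-fold higher), and its other probe set read 100 and 213, a difference of 1.08. Both of its probe sets were therefore higher by nearly the same amount. Scd2, a close relative with the same activity, read 3783 and 4642 (0.30), with 0.36 and 0.43 on its other probe sets. Scd3, a further relative listed outside the members, was below the floor on both arrays, with 27.8 and 27.4.

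Fads1 and Fads2, which place further double bonds in polyunsaturated chains, were higher by less. Fads1 read 386 and 474 (0.30) and Fads2 345 and 383 (0.15). Their other probe sets above the floor gave 0.09 and 0.23. All 9 desaturase probe sets above the floor, repeat readings of 4 genes on the same arrays, were higher in silncMDSC. The median of the 4 genes was 0.30, although Scd1 alone was more than 1.5-fold apart. Fads3, listed outside the members, had 135 and 144 (0.09).

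Lpin1, or lipin 1, converts phosphatidate to diacylglycerol on the way to triglycerides and phospholipids. It read 272 in control and 549 in silncMDSC (1.01, or 2.02-fold higher), and 256 and 463 on its other probe set (0.85). Scd1 and Lpin1 ranked 11 and 18 from the top among the 11920 genes above the floor, and 0.168% of those genes were at least 2-fold higher. The related Lpin2, not a member, had 535 and 513, a difference of -0.06. Of these 2 lipin genes, Lpin1 was the one that stood apart.

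The first enzymes of fatty acid synthesis differed little and not in 1 direction. Acly, which splits citrate into acetyl-CoA, read 2452 in control and 2712 in silncMDSC (0.15). Of its 4 other probe sets above the floor 3 were higher, by up to 0.20, and 1 gave -0.23. Acaca, acetyl-CoA carboxylase, which makes malonyl-CoA, was level with 608 and 602 (-0.01). Fasn, fatty acid synthase, the enzyme that builds palmitate, read 1837 and 1636 (-0.17). Their median was -0.01, beside 0.30 for the desaturases described above. Both groups were formed after the values were seen, and no test of that contrast was possible.

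The elongases split. Elovl5, which lengthens polyunsaturated chains, read 2082 in control and 2482 in silncMDSC (0.25, and 0.32 on its other probe set). Elovl1, an elongase of saturated very long chains, read 1292 and 1048 (-0.30), and its 3 other probe sets were lower as well, from -0.54 to -0.33. Elovl6, which lengthens palmitate to stearate, read 500 and 456 (-0.13), with -0.46 on its next probe set. Above the floor, the probe sets of each of the 3 genes were on 1 side, so 2 elongases were lower and 1 higher, all within 1.5-fold on their brightest probe set. Over the 11 genes read in the fatty acid branch the median was 0.15, with 7 above 0, and without Scd1 and Lpin1 it was 0.145.

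**Figure D2:**
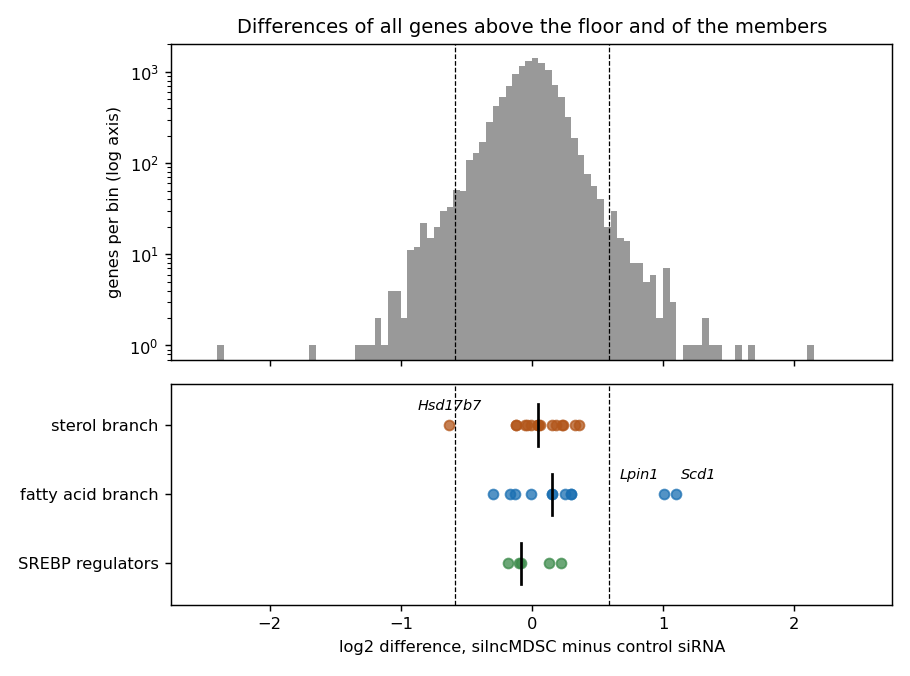
The upper panel counts all 11920 genes above the floor by their log2 difference, silncMDSC minus control siRNA (x axis, bins of 0.05, y axis on a log scale). The lower panel shows each member as a point by branch, with the branch median as a black bar (0.05, 0.15 and -0.08), and the dashed lines mark 1.5-fold, beyond which only Scd1, Lpin1 and Hsd17b7 lie.

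Sterol synthesis genes lay within 1.5-fold, as did most genes, apart from Hsd17b7, whose distance depended on the probe set. Over the 16 genes of the branch the median difference was 0.05, with 10 above 0 and 7 within 0.1 of 0. Past 1.5-fold were 0 on the higher side and 1 on the lower, against 0.948% and 1.42% of all genes. Of all 11920 genes above the floor, 49.3% were above 0 and 5117 were within 0.1 of 0, so nearness to 0 was no trait of the branch. At a smaller threshold of 0.32 on the log2 scale, 2 were higher, Tm7sf2 and Pmvk, against 4.45% of all genes, and 1 was lower, again Hsd17b7, against 6.95%.

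The mevalonate steps ran from -0.12 to 0.33. Hmgcs1, HMG-CoA synthase, read 1448 in control and 1610 in silncMDSC (0.15), and its 4 other probe sets were all higher, from 0.18 to 0.40. Mvk, mevalonate kinase, was nearly level with 476 and 461 (-0.04). Pmvk, phosphomevalonate kinase, read 318 and 401 (0.33) on its 1 probe set. Mvd, which removes carbon dioxide to give isopentenyl diphosphate, read 320 and 375 (0.23), with 0.07 on its other probe set. The next enzymes were closer to level. Idi1, the isomerase of that product, read 919 and 847 (-0.12), and Fdps, farnesyl diphosphate synthase, 2637 and 2743 (0.06). Neighbouring steps of the route therefore lay on different sides of 0.

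The squalene steps differed by at most 0.24. Fdft1, squalene synthase, which commits the route to sterols, read 827 in control and 980 in silncMDSC (0.24), and its other probe sets above the floor gave 0.16 and 0.29. Sqle, squalene epoxidase, an oxygen-using and rate-limiting step, read 792 and 817 (0.05). Lss, lanosterol synthase, had 325 and 323 (-0.01), and the only further one above the floor had 0.07, so its side of 0 is not settled.

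The steps after lanosterol held both extremes of the branch. Hsd17b7, a ketoreductase that acts while the methyl groups of lanosterol are taken off, read 296 in control and 190 in silncMDSC (-0.63, or 1.55-fold lower). Its other probe sets above the floor, 246 and 184 (-0.41) and 118 and 107 (-0.15), were lower by less, so the direction was shared and the size was not. Nsdhl, the dehydrogenase that works beside it in the same demethylation, read 516 and 585 (0.18). Tm7sf2, a sterol reductase, read 304 and 390 on its 1 probe set, and its 0.36 was the highest of the branch.

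The remaining sterol genes were close to level. Cyp51, which takes a methyl group off lanosterol, had 729 in control and 705 in silncMDSC (-0.05). Ebp, a sterol isomerase, had 994 and 916 (-0.12), and Dhcr7, the reductase that ends 1 arm of the route with cholesterol, 336 and 349 (0.05). Stard4, which carries sterol between membranes, had 864 and 891 (0.05), but -0.02 and -0.27 on its other probe sets, so it cannot be called higher. Over the 6 genes from Cyp51 to Dhcr7 the median was 0.002, with 3 above 0 and 3 below.

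The SREBP regulators were nearly level. On the brightest probe sets only, both factors were slightly higher and the proteins that control them slightly lower. Srebf1 encodes SREBP-1, which is known mainly for fatty acid genes, and read 1041 in control and 1210 in silncMDSC (0.22). Its probe set was not assigned here to either of its isoforms. Srebf2 encodes SREBP-2, which is known mainly for sterol genes, and read 842 and 919 (0.13), with 0.27 on its other probe set. Scap read 691 and 611 (-0.18). Insig1, itself a known SREBP target, read 1578 and 1475 (-0.10), and Insig2 322 and 305 (-0.08), with -0.003 and 0.06 on its other probe sets. All 5 lay within 0.22 of 0 and their median was -0.08. That median was 0.07 when all probe sets of a gene were averaged, so the group has no settled direction. These are RNA levels, and the cleavage that activates SREBPs is not read by an array.

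**Figure D3:**
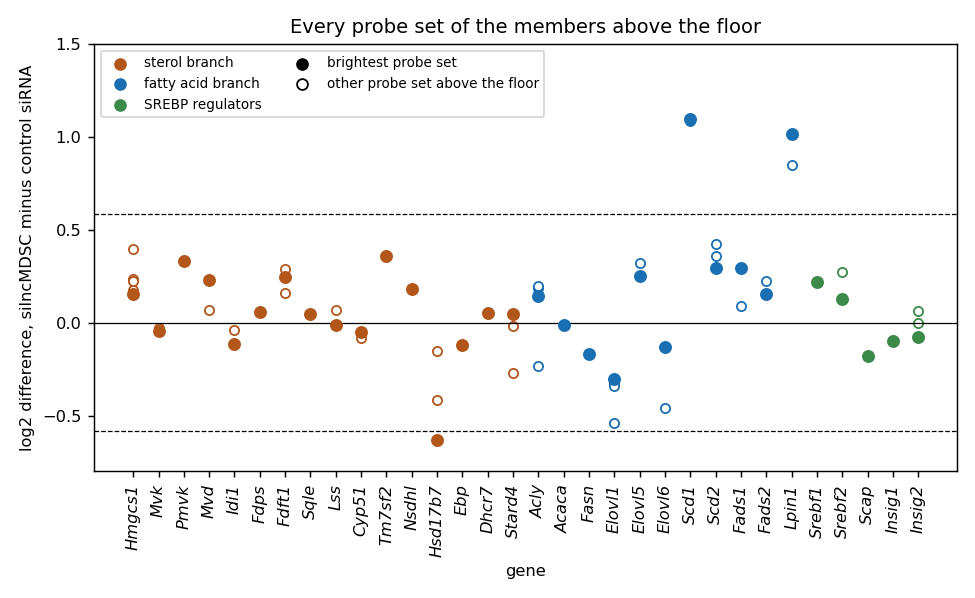
Each point is 1 of the 65 member probe sets above the floor, with its log2 difference (y axis, silncMDSC minus control siRNA), filled for the brightest probe set of a gene and open for the others, and dashed lines mark 1.5-fold. The probe sets of Scd1 (1.10 and 1.08) and Lpin1 (1.01 and 0.85) lie together above the upper line, while those of Hsd17b7 spread from -0.63 to -0.15.

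Other probe sets gave a second reading of the same RNA on the same arrays, though not of another culture. Of the 32 members, 20 had another probe set above the floor, and in 16 of these all such probe sets lay on the side of the brightest one. The other 4 were Lss, Stard4, Acly and Insig2. Among the 15 of the 20 whose difference was at least 0.1 in size, 14 had all on that side, with Acly as the exception. In 12 members, including Pmvk and Tm7sf2, nothing else above the floor could be set beside the value. The brightest probe set had an identifier ending in _x_at or _s_at, a mark of possible cross-hybridisation, in 7 members, Hsd17b7 among them.

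Genes of the same routes outside the members stayed within 1.5-fold, as most genes did, with 1 exception on the higher side. Acss2, which makes acetyl-CoA from acetate and is a known SREBP target, read 129 in control and 226 in silncMDSC (0.81, or 1.75-fold higher), with a difference of 0.76 on the other of its probe sets that passed the floor. It was the 1 of 16 other fatty acid genes above the floor that was at least 1.5-fold higher, with 0 lower by as much and a median of -0.04. The others with the largest differences were Hacd3, a dehydratase of the elongation cycle (847 and 658, -0.36), Gpam, which starts glycerolipid synthesis (265 and 218, -0.28), Dgat1 (708 and 854, 0.27) and Dgat2 (1619 and 1347, -0.27). Both Dgat enzymes make triglyceride and lay on different sides of 0. A further 6 listed fatty acid genes were below the floor.

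Among 5 other sterol genes, 0 were 1.5-fold apart in either direction and the median was -0.05. The farthest apart were the prenyl chain enzyme Ggps1 (176 and 161, -0.13), the demethylation enzyme Msmo1 (569 and 621, 0.13), the lysosomal cholesterol exporter Npc1 (472 and 448, -0.07) and the desaturase Sc5d (434 and 420, -0.05). Among 7 other SREBP regulators, 0 were 1.5-fold apart and the median was -0.07. They included Pgrmc1, a haem-binding membrane protein (983 and 854, -0.20), Erlin1 of the endoplasmic reticulum (635 and 577, -0.14), and the proteases that cleave SREBPs, Mbtps1 (599 and 646, 0.11) and Mbtps2 (413 and 390, -0.08).

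Genes of cholesterol efflux under the liver X receptor (LXR), which is also known to drive Srebf1 and Scd1, were uneven, with a median of -0.23 over 4 above the floor, of which 1 was lower by 1.5-fold or more and 0 higher by as much. The lipid carrier Apoe read 629 in control and 341 in silncMDSC (-0.88, or 1.84-fold lower), and the cholesterol exporter Abca1 1301 and 887 (-0.55). The related exporter Abcg1 was on the other side with 1404 and 1646 (0.23), and Mylip, which marks lipoprotein receptors for breakdown, had 694 and 745 (0.10). Nr1h3, which encodes LXRα, was below the floor on both arrays. The other listed LXR gene, Nr1h2, had no probe set annotated to it alone and was not read.

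**Figure D4:**
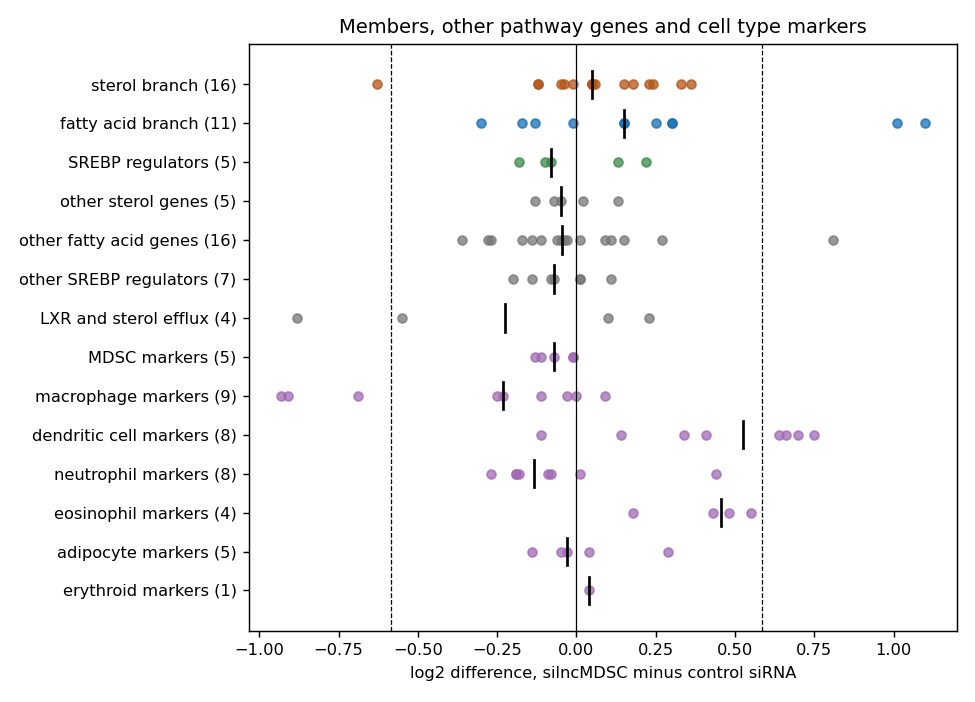
Each point is 1 gene above the floor with its log2 difference (x axis, silncMDSC minus control siRNA), by list with the number of genes in brackets, the list median as a black bar and dashed lines at 1.5-fold. Other sterol genes and SREBP regulators lie within 0.20 of 0, while dendritic cell markers centre on 0.53 and macrophage markers on -0.23.

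Markers of other cell types moved between the cultures beside these genes. The MDSC label was borne by 5 markers above the floor, such as the integrin Itgam (2144 in control and 2040 in silncMDSC) and the granulocyte calcium-binding protein S100a9 (13983 and 13880), with Csf3r (-0.11) and Cd33 (-0.13) the farthest apart and differences from -0.13 to -0.01. Their summed intensity, 31810 and 31358, came mostly from S100a8 and S100a9, and as S100a9 was the highest value on each array, a difference there may be compressed. Ly6g, which the study uses to tell MDSC subsets apart, was also listed. It had no probe set annotated to it alone and was not read. Of 8 dendritic cell markers, 4 were at least 1.5-fold higher, H2-Eb1 (0.75), Ciita (0.70), Itgax (0.66) and Ccr7 (0.64), against 0.948% of all genes. On its other probe sets above the floor Ciita gave 0.09 and 0.38, within 1.5-fold. The list's summed intensity went from 7949 to 11466 and came mostly from H2-Aa (4661 and 6210) and H2-Eb1 (2150 and 3628). Zbtb46 (0.14) was nearer level, and Cd209a (-0.11) was the 1 marker of the list below 0. Of 9 macrophage markers, 3 were at least 1.5-fold lower, Mrc1 (-0.93), Msr1 (-0.91) and Mertk (-0.69), against 1.42% of all genes. Other probe sets of Msr1 above the floor ran from -0.88 to -0.4. The summed intensity of the macrophage list went from 16615 to 14914. Next in that list was C1qb (-0.25). Adgre1 was level (3070 in control and 3068 in silncMDSC), and Csf1r (0.09) was the 1 marker of the list above 0.

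Eosinophil markers had 0 of 4 at least 1.5-fold apart, but all 4 were higher, Prg2 (0.55), Siglecf (0.48), Epx (0.43) and Prg3 (0.18), and the summed intensity over the 6 that could be read went from 3156 to 4381. Neutrophil markers had 0 of 8 at least 1.5-fold apart, with Cxcr2 (0.44), Mpo (-0.27), Mmp9 (-0.19) and Ltf (-0.19) in front and a sum of 38378 and 36179. Adipocytes are rich in Scd1 and Lpin1. Of 8 adipocyte markers read, 5 were above the floor with 0 at least 1.5-fold apart, the summed intensity was 679 in control and 680 in silncMDSC, and the defining Adipoq (34.4 and 33.1) and Lep (29.0 and 32.2) did not reach the floor on either array. The largest of the 5 were Lipe (0.29) and Cidec (-0.14), with Slc2a4 (-0.05) and Retn (0.04) next. Of 4 erythroid markers read, 1 was above the floor, Epor (0.04), and the summed intensity went from 306 to 300. The lowest marker values were 29.0 in the adipocyte list and 30.4 in the eosinophil list, both below the floor. The part of these cell types in the values of Scd1, Lpin1 and Hsd17b7 was not tested.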

How the data were processed

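RNA of 2 mouse bone marrow cultures (6 µg total RNA each, per the labels) was read on the Affymetrix Mouse Genome 430 2.0 array. What the authors deposited were intensities of probe sets, for which the submitters' notes name RMA, with no version given in the sources used here. RMA returns log2 values, whereas these were linear, from 1 to 13983 in control and to 13880 in silncMDSC, with medians of 77.9 and 79.0. The return to the linear scale and any lower limit or centring are not described in the sources used here. The direction is plain, since each array holds 1 sample. The study's limma test could not be run with 1 array per group. The number of arrays limits the precision, and so does the choice of probe set for a gene.

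Of 45037 probe sets (64 controls left out), 34945 had 1 gene symbol, 932 several and 9160 none, and genes were named from the first. All 32 members read were found by Entrez identifier in RefSeq (GRCm38.p6), with 0 symbols changed. Array positions carry no genome build. Lists were described by counts and medians beside all genes. The members and lists were chosen with earlier results of these data known, and pathway stages were grouped after the values were seen. All members are named, and of other genes those at least 1.5-fold apart above the floor plus up to 4 of each list with the largest differences. Fads3, Lpin2, Scd3, Nr1h2, Nr1h3, Mbtps1, Mbtps2, Ly6g, S100a9, Itgam, Adipoq and Lep were added for what they are. To show both sides of their lists, Adgre1, Csf1r, H2-Aa, Zbtb46 and Cd209a were added too. The calculation (Python 3.11.15, pandas 2.3.3, statsmodels 0.14.6) was tested on simulated data. Alternatives were a pseudocount of 16, other floors, centring, a loess trend (span 0.3), quantile normalization, the mean of probe sets, leaving out probe sets that may cross-hybridise, and thresholds of 0.32 on the log2 scale and 2-fold.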

Additional observations from a re-analysis of the deposited data

How the results depend on the processing

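No paired analysis was possible because each group held 1 array, and no replicate could be left out. With 1 array per group no difference has a replicate error, and background and probe set summary could not be varied, since no scanner files entered. The floors could not change a member's difference, since all 32 passed each of them, and centring shifted all genes alike. Of the other settings, the mean of all probe sets and leaving out those ending in _x_at or _s_at moved 7 single-gene values by over 0.1, while Scd1 (1.06 to 1.13), Lpin1 (0.93 to 1.05) and Hsd17b7 (-0.63 to -0.27) kept their sides of 0. With the mean of all probe sets and also without probe sets ending in _x_at or _s_at, 0 members, and so 0 of the sterol branch, were at least 1.5-fold lower, as Hsd17b7 came to -0.27 and -0.41. The mean of all probe sets also took the median of the SREBP regulators from -0.08 to 0.066 and turned the sign of 5 members (Fdps, Cyp51, Stard4, Acaca and Scap). Fdps went from 0.06 to -0.36 there, where 1 further probe set below the floor (7.73 and 4.07) entered the mean. A loess trend turned 2 (Lss and Acaca), quantile normalization 3 (Lss, Cyp51 and Acaca) and leaving out cross-hybridising probe sets 1 (Lss). At 0.32 on the log2 scale 4 members, 2 of them in the sterol branch, were higher, and at 2-fold 0 members, and 0 of the sterol branch, were lower. Medians ran from 0.054 to 0.094 over all members, from 0.023 (mean of probe sets) to 0.091 (quantile normalization) in the sterol branch and from 0.146 to 0.196 in the fatty acid branch. No setting took the median of all genes outside -0.021 to 0.013.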
